A study of Mus musculus with 19 samples.

Results

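Cxcl13, Ccl24, Ccl6, Ccl9, Ccl8, Pf4, Cxcl16 and Cxcl12 are 8 chemokine genes chosen here from 19938 genes on the arrays. Each was read from the probeset that carries its symbol alone, and where several exist the one with the highest mean over all 19 arrays would be taken, although each of the 8 genes had only 1. The arrays hold RNA of Kupffer cells (KCs), the macrophages of the liver sinusoids. Embryonic KCs (em-KCs), as the study names the KCs of mice without depletion, are held to arise before birth. The authors report that marrow monocytes also join this pool in the first weeks of life. The em-KC arrays may therefore include some cells of that origin. Monocyte-derived KCs (mo-KCs) refill the niche after em-KCs have been killed with diphtheria toxin (DT).

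KC-DTR mice carry a knock-in cassette, with YFP and the human DT receptor, in the 3′ part of Clec4f, the lectin gene whose protein also marked the cells in the sort. The gate for em-KCs and mo-KCs alike took live CD45+ cells positive for Clec4F and a general macrophage antigen and negative for Ly6C, Ly6G and SiglecF. Mo-KCs came from KC-DTR mice 15 days (3 arrays) or 30 days (5 arrays) after 50 ng DT. The 11 em-KC arrays came from untreated KC-DTR mice (3 arrays), an untreated WT littermate (1 array), WT littermates 15 days (2 arrays) or 30 days (2 arrays) after DT, and WT mice (3 arrays). All mice were on the C57Bl/6 background and between 6 and 12 weeks old, both sexes were used in the study, and the labels call the samples of a group biological replicates. Every em-KC array enters both comparisons with mo-KCs, so the values at day 15 and day 30 share their controls. The labels do not say whether mice were pooled for a sample, and p-values measure the spread between these arrays, part of which may be technical.

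Chemokines are small secreted proteins that bind G protein-coupled receptors on leukocytes and steer where those cells go. Homeostatic chemokines are made without inflammation, and Cxcl13 is the one best known for drawing B cells into lymphoid follicles through Cxcr5. Tissue macrophages also make chemokines of the CC class, which act on receptors of monocytes, eosinophils and lymphocytes.

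The promoters of Cxcl13, Pf4 and Ccl9, which are among the genes described below, are shown here. Of the 3, only Cxcl13 differed between mo-KCs and em-KCs by an amount that passed the main test below. Each run is the 250 bases before the RefSeq start on build GRCm38.p6, read 5′ to 3′ on the gene's strand. Capitals mark matches, on either strand, to TATAAA (the TATA box), GGGAGATTT (a kB element known from alternative NF-kB signalling) and GAGGAAG (the core bound by PU.1, a macrophage factor). The positions are chr5:95956689-95956938 on the plus strand for Cxcl13, chr5:90772185-90772434 on the plus strand for Pf4 and chr11:83578637-83578886 on the minus strand for Ccl9.
Cxcl13: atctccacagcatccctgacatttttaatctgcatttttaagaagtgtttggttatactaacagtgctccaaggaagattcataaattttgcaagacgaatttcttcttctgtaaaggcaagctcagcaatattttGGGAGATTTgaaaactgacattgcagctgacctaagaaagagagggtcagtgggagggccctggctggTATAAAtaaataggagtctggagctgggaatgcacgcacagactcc
Pf4: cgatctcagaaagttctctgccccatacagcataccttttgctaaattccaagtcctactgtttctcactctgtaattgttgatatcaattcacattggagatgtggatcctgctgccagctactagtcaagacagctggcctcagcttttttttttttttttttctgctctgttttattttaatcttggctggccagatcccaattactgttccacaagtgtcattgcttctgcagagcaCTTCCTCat
Ccl9: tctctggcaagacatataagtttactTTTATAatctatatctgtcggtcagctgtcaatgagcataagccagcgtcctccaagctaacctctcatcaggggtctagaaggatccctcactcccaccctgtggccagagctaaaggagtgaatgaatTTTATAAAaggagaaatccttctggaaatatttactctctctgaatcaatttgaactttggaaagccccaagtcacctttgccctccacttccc
The Cxcl13 promoter held 1 kB match, starting 114 bases before the start, and 1 TATA match starting 46 bases before it. Of 32851 promoters of the same length, 0.283% held the kB letters, 12.4% the TATA letters and 10.6% the PU.1 letters. The Pf4 promoter held 1 PU.1 match and no TATA match. The Ccl9 promoter held 3 TATA matches, of which a forward and a reverse match overlap. Ccl6 and Ccl9 are neighbours on chromosome 11, and the Ccl6 promoter held none of the 3 motifs. RefSeq entries were at hand for 6 of the 8 genes, with Ccl24 and Cxcl16 not among them. The motifs were chosen after the sequences were seen, and a match is a description of the letters only.

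Cxcl13 was far lower in mo-KCs than in em-KCs at day 15 and had partly risen by day 30. It was the only one of the 8 chemokine genes that passed the test in mo-KCs at either day, while Ccl24, Ccl6, Ccl9, Ccl8, Pf4, Cxcl16 and Cxcl12 did not pass the test. The 3 day 15 mo-KC arrays read 6.96, 6.24 and 7.78 for Cxcl13 on the log2 scale. The 5 day 30 mo-KC arrays read 9.04, 9.28, 9.65, 10.12 and 9.72, and the 11 em-KC arrays lay between 10.52 and 11.37 with a median of 11.03. Every day 15 array was below every day 30 array, and every day 30 array was below every em-KC array.

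**Figure D1:**
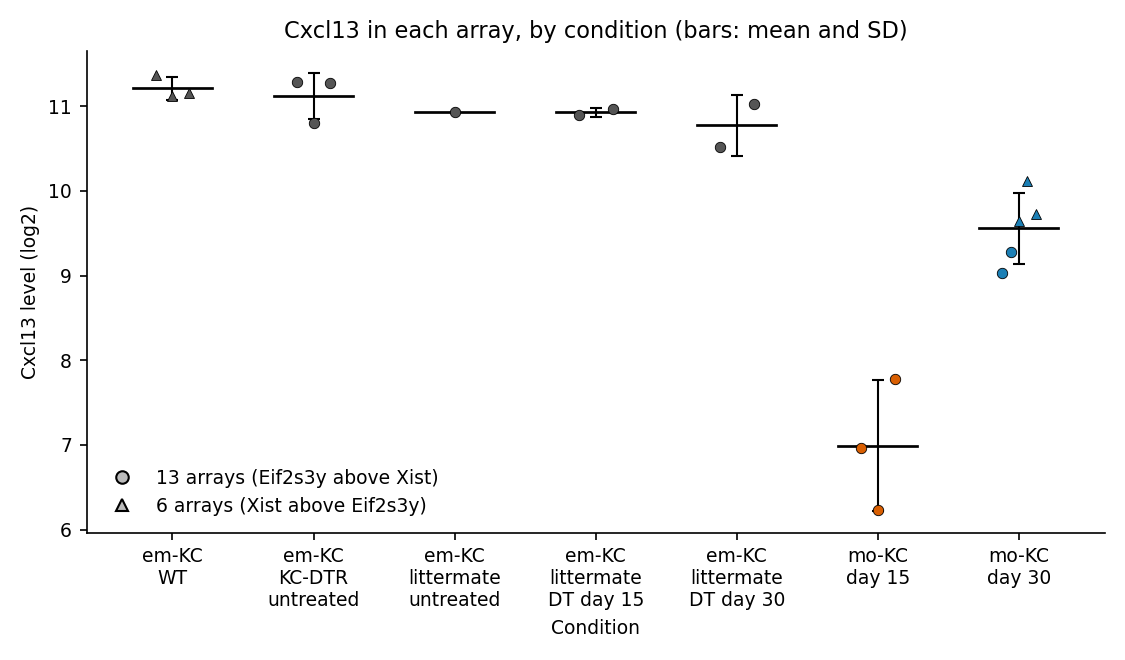
Cxcl13 level (log2, vertical axis) in each of the 19 arrays by condition (horizontal axis), where horizontal bars are means, error bars are SDs, circles are the 13 arrays with Eif2s3y above Xist and triangles are the 6 arrays with Xist above Eif2s3y. The 3 day 15 mo-KC arrays lie between 6.24 and 7.78, the 5 day 30 mo-KC arrays between 9.04 and 10.12, and all em-KC arrays at or above 10.52.

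In em-KCs the mean Cxcl13 level was 11.03 ± 0.25 (SD, n = 11), and at day 15 it was 6.99 ± 0.77 (SD, n = 3), a log2 difference of -4.04 (95% confidence interval -4.52 to -3.56, adjusted p = 4.21e-10 from limma), or 16.5-fold lower. By absolute difference Cxcl13 ranked 1 of all 19938 genes at day 15. The day 15 level was low, since markers of B cells, for example, averaged 6.46 in em-KCs. Whether Cxcl13 lay above background at day 15 was not tested, so the fold sizes are those of the array values only. Differences were tested with limma, a moderated linear model, and a gene passed, or was called, where its p adjusted over all 19938 genes was under 0.05. Of all genes, 0.502% passed the test at day 15, against 1 of the 8 chemokine genes. At day 30 Cxcl13 was 9.56 ± 0.42 (SD, n = 5), a log2 difference from em-KCs of -1.47 (95% confidence interval -1.87 to -1.07, adjusted p = 0.000153 from limma), or 2.77-fold lower, and ranked 16. Here 0.787% of all genes passed, again against 1 of the 8. The mean of both days was 6.76-fold below em-KCs (adjusted p = 7.31e-10 from limma), where 1.19% of all genes passed and 1 of the 8 did. In arrays of sorted cells, fewer Cxcl13-expressing cells and less Cxcl13 RNA per cell cannot be told apart.

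Between the days, Cxcl13 rose by 2.57 on the log2 scale (95% confidence interval 2.03 to 3.11, adjusted p = 2.51e-05 from limma), 5.93-fold. Only 4 of all genes, or 0.0201%, passed this test, and Cxcl13 was 1 of them and the only one of the 8 chemokine genes. The rise closed 63.6% of the day 15 log2 difference from em-KCs, a share that rests on the low day 15 level. The gap was 1.26 between the highest day 15 and the lowest day 30 array, and 0.40 between the highest day 30 and the lowest em-KC array. With the methods' t-test the day 30 against day 15 difference was not called (adjusted p = 0.886), and that test called 0 of all genes, with 782 at an unadjusted p under 0.05.

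The other 3 genes called between the days were Timd4, Ccr2 and Ptgs2. Timd4, which encodes the phosphatidylserine receptor Tim4, rose by 1.46 (adjusted p = 5.12e-07 from limma). Ccr2, the receptor that brings monocytes out of the bone marrow, fell by 2.29 (adjusted p = 2.7e-05 from limma). Ptgs2, the inducible cyclooxygenase of prostaglandin synthesis, fell by 1.27 (adjusted p = 0.000245 from limma). In each of these, as in Cxcl13, the day 30 mean lay between the day 15 mean and the em-KC mean, and Ccr2 and Ptgs2 at day 30 overlapped em-KCs while Cxcl13 and Timd4 did not.

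**Figure D2:**
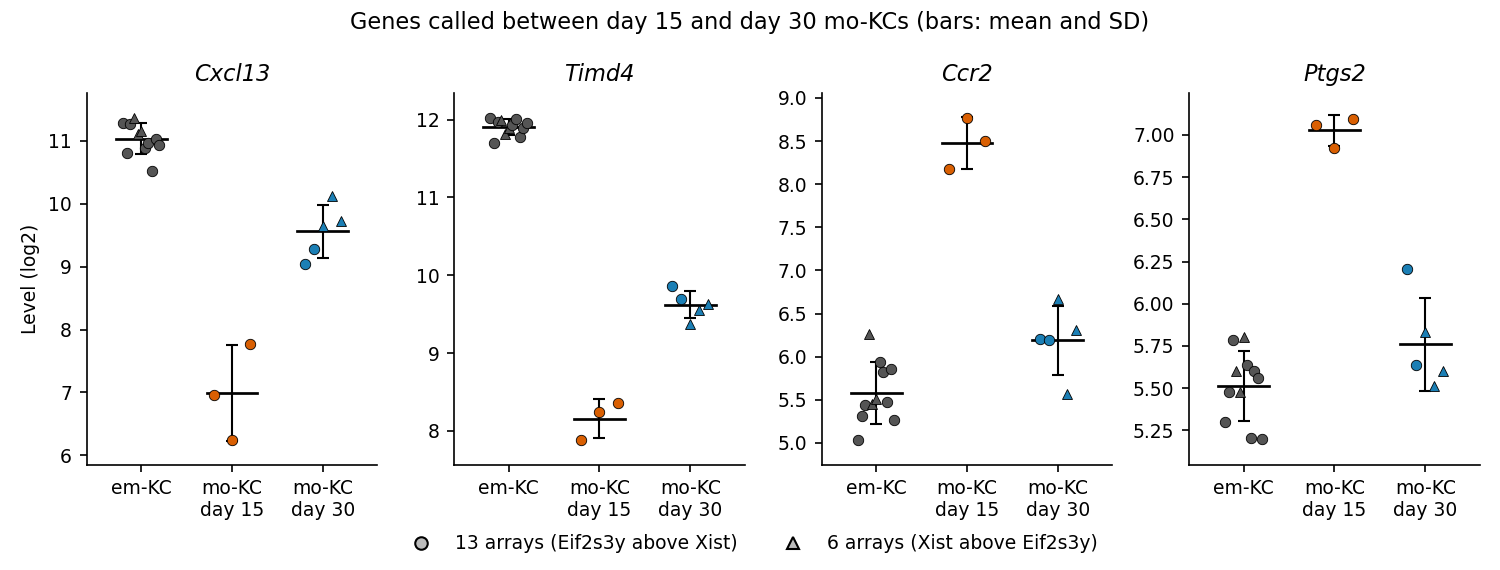
Levels (log2, vertical axes, not starting at 0) of the 4 genes called between day 15 and day 30 mo-KCs, by group (horizontal axis), with means and SDs as bars and with circles and triangles for the 13 and 6 arrays that differ in Eif2s3y and Xist. Cxcl13 and Timd4 are lowest and Ccr2 and Ptgs2 highest at day 15, with the 5 day 30 arrays in between or beside em-KCs.

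Over all 19 arrays, the genes whose levels most resembled Cxcl13 by Pearson's r were Timd4 (0.93), Apoc1 (0.91), Tspan4 (0.88), C6 (0.87) and Xlr (0.86). Timd4 was thus both the nearest pattern and a gene called with Cxcl13 between the days. Apoc1 encodes an apolipoprotein, Tspan4 a tetraspanin and C6 a terminal complement component. Within the 11 em-KC arrays alone, r with Cxcl13 was 0.64 for Timd4, 0.60 for Apoc1 and 0.58 for Tspan4, and -0.22 for C6 and 0.12 for Xlr. Among the 8 themselves, r with Cxcl13 over the 19 arrays ran from -0.43 for Pf4 to 0.26 for Ccl6 and Ccl9. Over these arrays the highest r of any pair was 0.68, for Ccl9 and Cxcl12. Within the 11 em-KC arrays r with Cxcl13 was 0.75 for Cxcl12, 0.62 for Ccl6, 0.53 for Ccl9 and 0.42 for Ccl8. There it was 0.23 for Cxcl16, -0.08 for Ccl24 and -0.42 for Pf4. The nearest gene was Cox5a for Ccl24 (0.87), Psma6 for Ccl6 (0.83), Isoc1 for Ccl8 (0.81), N4bp2l2 for Pf4 (0.79), Hax1 for Cxcl16 (0.81) and Vamp7 for Cxcl12 (0.87). Within the 11 em-KC arrays r was 0.93 for Ccl24 and Cox5a, 0.91 for Ccl6 and Psma6, 0.89 for Ccl8 and Isoc1, 0.73 for Pf4 and N4bp2l2, 0.86 for Cxcl16 and Hax1, and 0.88 for Cxcl12 and Vamp7. These are descriptions over arrays that share groups.

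No em-KC condition differed from the others in Cxcl13 by an amount that passed the tests made. Untreated KC-DTR em-KCs read 11.29, 10.81 and 11.28, the untreated littermate 10.93, littermates 15 days after DT 10.89 and 10.97, littermates 30 days after DT 10.52 and 11.03, and WT mice 11.37, 11.12 and 11.16. The 3 WT arrays lay above the 5 littermate arrays, and the KC-DTR arrays overlapped both. WT em-KCs differed from the other em-KCs by 0.27 in Cxcl13 (95% confidence interval -0.26 to 0.81, adjusted p = 0.49 from limma). Untreated KC-DTR em-KCs were compared with the mean of the 3 littermate conditions, in which 4 of the 5 arrays came from mice given DT, so that genotype and DT cannot be told apart there. In this comparison 0% of all genes and 0 of the 8 chemokine genes passed limma, with 756 genes at an unadjusted p under 0.05 and none of the 8 among them. The methods' t-test also called 0 genes, with 1499 at an unadjusted p under 0.05 and none of the 8 among them. For Cxcl13 that difference was 0.24 (95% confidence interval -0.33 to 0.82).

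The arrays fall into 2 sets that the labels do not name. In 6 of them Xist, transcribed from the inactive X chromosome, exceeds the Y-linked Eif2s3y, namely in all 3 WT arrays and in replicates 3 to 5 of day 30, and in the other 13 arrays the order is the reverse. The labels state neither the sex nor the hybridisation batch of any array. Within the 13 arrays Cxcl13 differed from em-KCs by -3.97 at day 15 (limma adjusted p = 5.32e-08), the day 30 difference was -1.81 (limma adjusted p = 0.0055), and the days differed by 2.17 (limma adjusted p = 0.0133). In the other 6, which hold no day 15 array, the day 30 difference was -1.39 (limma adjusted p = 0.00576). Among the day 30 arrays, replicates 1 and 2 read 9.04 and 9.28 and replicates 3 to 5 read 9.65, 10.12 and 9.72. A test, chosen after seeing the data, of whether the day 30 difference itself differed between the sets gave 0.42 for Cxcl13 (adjusted p = 0.577 from limma), and none of the 8 genes passed it while 942 of all genes did. The widest value among the 8 was 0.59 for Ccl6 (95% confidence interval 0.21 to 0.98, adjusted p = 0.0753 from limma). Ccl24 gave 0.44 (95% confidence interval 0.06 to 0.82, adjusted p = 0.189 from limma). The day 30 difference was -0.26 for Ccl6 and -0.23 for Ccl24 within the 13 arrays. In the other 6 arrays it was 0.34 for Ccl6 and 0.21 for Ccl24, and none of these values was called. The day 30 values over all arrays, given below, pool these directions.

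Pf4 (platelet factor 4, a chemokine of platelet granules that macrophages also express) had a higher mean in mo-KCs than in em-KCs, with differences that did not pass the test. The 3 day 15 arrays read 10.33, 10.21 and 10.18 and the 5 day 30 arrays 10.12, 10.66, 10.49, 10.70 and 10.44. The 11 em-KC arrays lay between 9.42 and 10.65 with a median of 9.94. Untreated KC-DTR em-KC replicate 2, at 10.65, overlaps the mo-KC range, and the next highest em-KC array read 10.09. The log2 difference was 0.34 at day 15 (95% confidence interval -0.02 to 0.70, adjusted p = 0.856 from limma) and 0.58 at day 30 (95% confidence interval 0.28 to 0.88, adjusted p = 0.0592 from limma), and for both days 0.46 (adjusted p = 0.0897 from limma).

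The day 30 value for Pf4 crossed the threshold in 7 alternative fits. Without KC-DTR untreated replicate 2 it was 0.66 (adjusted p = 0.00454 from limma), and without day 30 replicate 1 it was 0.67 (adjusted p = 0.0266 from limma). Against the 5 littermate em-KC arrays, chosen after seeing the data, it was 0.64 (limma adjusted p = 0.0194), and in the 6 arrays with Xist above Eif2s3y 0.67 (adjusted p = 0.0381 from limma). Within the 13 arrays it was 0.48 (adjusted p = 0.733 from limma). Platelet markers were set beside it: 5 of 8 were measured, none was called and none had an unadjusted p under 0.05 at either day. Their mean level was 6.07 to 6.63 in em-KCs, 6.06 to 6.43 at day 15 and 6.20 to 6.35 at day 30, and with that level as a covariate the day 30 Pf4 difference was 0.61. Ppbp, the neighbour of Pf4 and also a platelet chemokine, differed by -0.21 at day 15 and -0.51 at day 30, with neither called.

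**Figure D3:**
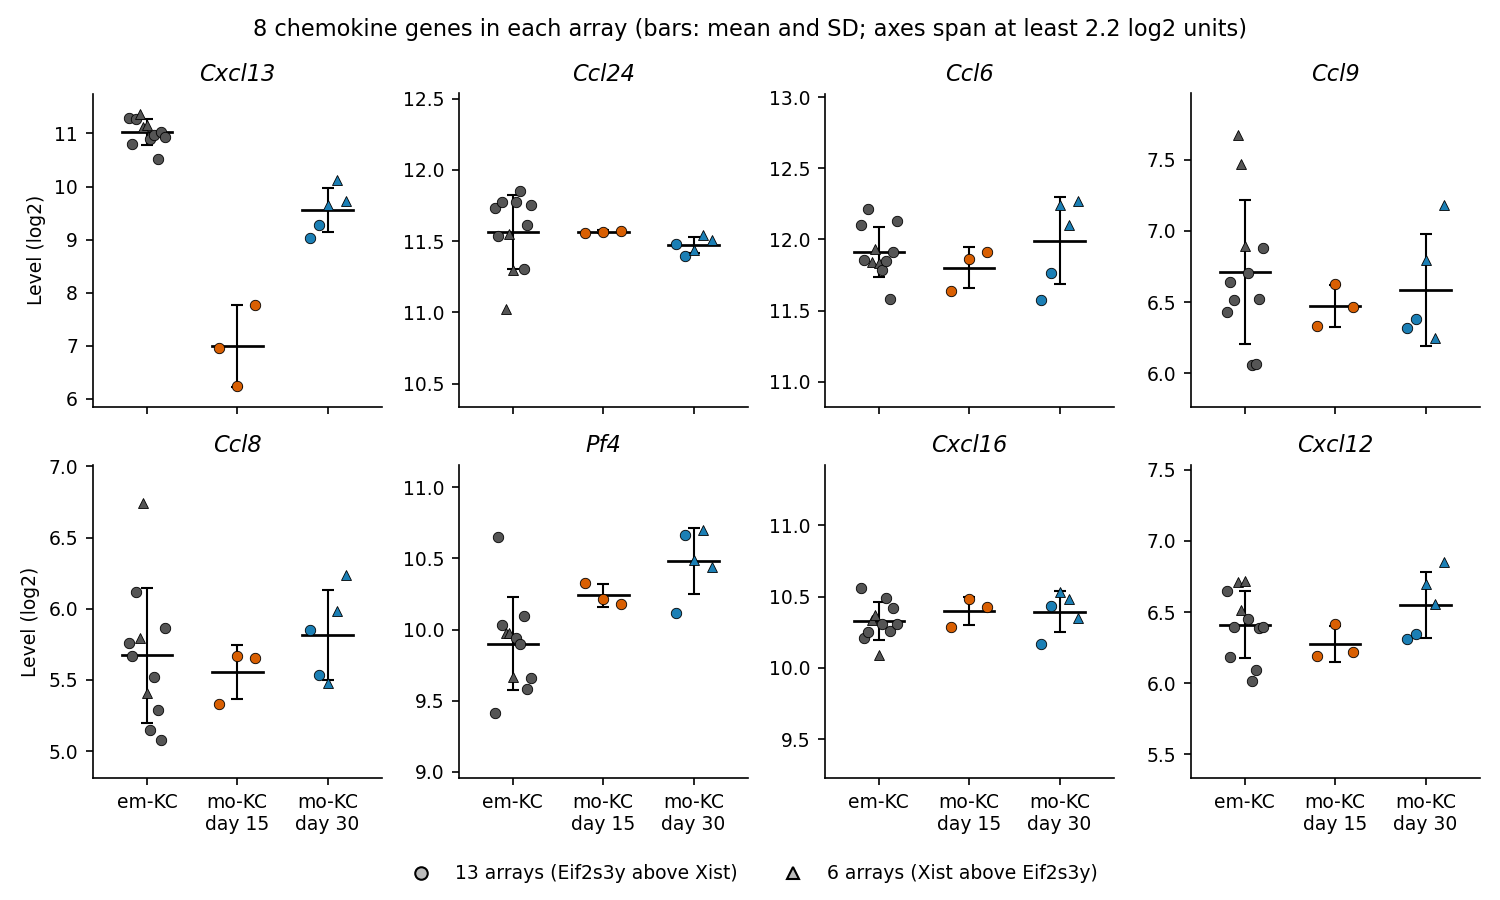
Levels (log2, vertical axes, each spanning at least 2.2 units and not starting at 0) of the 8 chemokine genes in each array by group (horizontal axis), with means and SDs as bars and with circles for 13 and triangles for 6 arrays as above. Cxcl13 is the gene whose groups do not overlap with em-KCs, and Pf4 at day 30 overlaps em-KCs through 1 array at 10.65.

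The CC chemokines gave no difference from em-KCs that passed the test. Ccl24, the ligand of Ccr3 that attracts eosinophils, lay between 11.02 and 11.85 in em-KCs and between 11.40 and 11.57 in all mo-KCs. Its log2 difference was 0.00 at day 15 (95% confidence interval -0.27 to 0.27) and -0.09 at day 30 (95% confidence interval -0.32 to 0.13). Ccl6 and Ccl9 are rodent ligands of Ccr1. Ccl6 read 11.64, 11.86 and 11.91 at day 15, 11.58, 11.76, 12.24, 12.10 and 12.27 at day 30, and 11.58 to 12.21 in em-KCs, so that all groups overlap. Ccl9 read 6.33, 6.63 and 6.46 at day 15, 6.32, 6.38, 6.80, 6.25 and 7.18 at day 30, and 6.06 to 7.67 in em-KCs, again with overlap. Ccl6 differed by -0.11 (95% confidence interval -0.39 to 0.17) and 0.08 (95% confidence interval -0.15 to 0.31), and Ccl9 by -0.24 (95% confidence interval -0.79 to 0.31) and -0.13 (95% confidence interval -0.58 to 0.32).

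Ccl8, a chemokine of monocytes and other leukocytes, differed by -0.12 (95% confidence interval -0.62 to 0.39) at day 15 and 0.14 (95% confidence interval -0.27 to 0.56) at day 30. Cxcl16, made as a membrane protein and also shed to attract Cxcr6-bearing cells, gave 0.07 at both days, with 95% confidence intervals of -0.13 to 0.27 and -0.10 to 0.23. Cxcl12, the ligand of Cxcr4 that holds leukocytes in the marrow, gave -0.14 (95% confidence interval -0.43 to 0.16) and 0.14 (95% confidence interval -0.10 to 0.38). Mean levels over all 19 arrays were low for Ccl8 (5.69), Cxcl12 (6.43) and Ccl9 (6.64). In em-KCs the markers of B cells averaged 6.46 and those of neutrophils 6.01. Whether KCs express Ccl8, Cxcl12 and Ccl9 was not tested, so the missing calls do not show a kept level of expression. The interval lay within 1.5-fold for 4 of the 8 genes at day 15 and 6 of the 8 at day 30, against 87.8% and 91.1% of all genes. At day 15 it reached past 1.5-fold for Ccl9, Ccl8 and Pf4, and at day 30 for Pf4, so that these intervals include differences of that size.

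**Figure D4:**
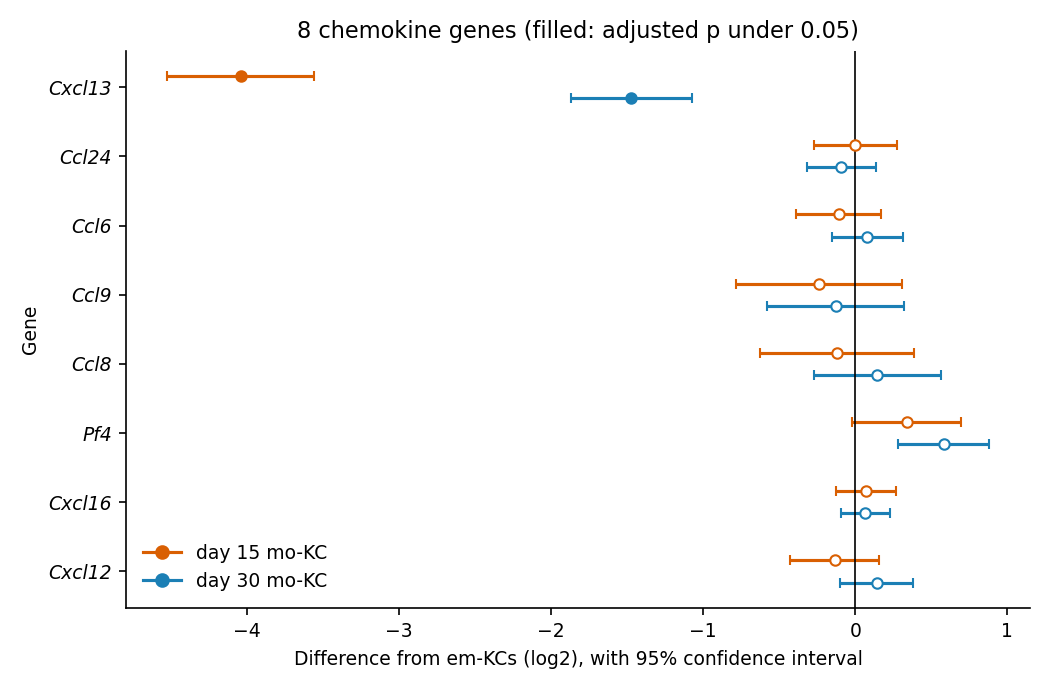
Log2 difference of day 15 and day 30 mo-KCs from em-KCs (horizontal axis, with 95% confidence intervals) for each chemokine gene (vertical axis), with filled points where the adjusted p was under 0.05. Only Cxcl13 is filled, at -4.04 and -1.47, and the other points lie between -0.24 and 0.58.

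Levels of Ccl24 did not overlap between the days (11.56 to 11.57 at day 15 and 11.40 to 11.54 at day 30), and neither did those of Cxcl13. Of all genes, 3.20% did not overlap between the days, and the Ccl24 difference of -0.09 did not pass the test. Against em-KCs, Cxcl13 was the only one of the 8 without overlap, where 1.81% of all genes had none at day 15 and 0.552% at day 30.

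Receptors of these chemokines were examined in the same arrays, with 24 of 25 chemokine receptor genes measured. At day 15, 4 were higher in mo-KCs than in em-KCs, 0 were lower and 20 did not pass. The median difference was -0.04 over the receptors and -0.01 over all genes. Ccr2 was higher by 2.90 (adjusted p = 2.38e-08 from limma) and Ccr3, the receptor for Ccl24, by 2.70 (adjusted p = 2.58e-05 from limma). Cx3cr1, the fractalkine receptor, was higher by 2.43 (adjusted p = 2.79e-06 from limma). Ccr1, the receptor for Ccl6 and Ccl9, was higher by 1.53 (adjusted p = 4.96e-05 from limma). Ccr3 read 9.98, 10.22 and 10.46 in day 15 arrays and 9.05 to 9.62 at day 30, both above the em-KC range of 6.44 to 8.63. Ccr1 levels were low throughout, at 5.08, 5.29 and 5.12 in day 15 arrays and 3.29 to 4.02 in em-KCs. At day 30, 2 were higher than in em-KCs, 0 were lower and 22 did not pass. Ccr3 was at 1.87 (adjusted p = 0.000348 from limma) and Cx3cr1 at 1.16 (adjusted p = 0.00383 from limma). Over both days 5 were higher, the fifth being Ccr1l1 at 0.75.

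Cxcr5, the receptor for Cxcl13, lay between 3.71 and 5.26 in em-KCs and between 4.24 and 5.05 in mo-KCs, with differences of -0.08 and 0.11 that did not pass the test (adjusted p = 0.982 and 0.832 from limma). Ccr1 at day 30 had 0.63 (adjusted p = 0.0592 from limma) and Ccr2 0.61 (adjusted p = 0.125 from limma). Ackr3, an atypical receptor of Cxcl12, had 0.39 and 0.42 (adjusted p = 0.789 and 0.226 from limma). Ccr8 (a receptor for Ccl8), Cxcr3, Cxcr4 and Cxcr6 did not pass at either day. Of these the widest day 15 value was 0.60 for Cxcr4 (95% confidence interval 0.08 to 1.13, adjusted p = 0.686 from limma), and Cxcr6 differed by -0.04 and 0.35.

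**Figure D5:**
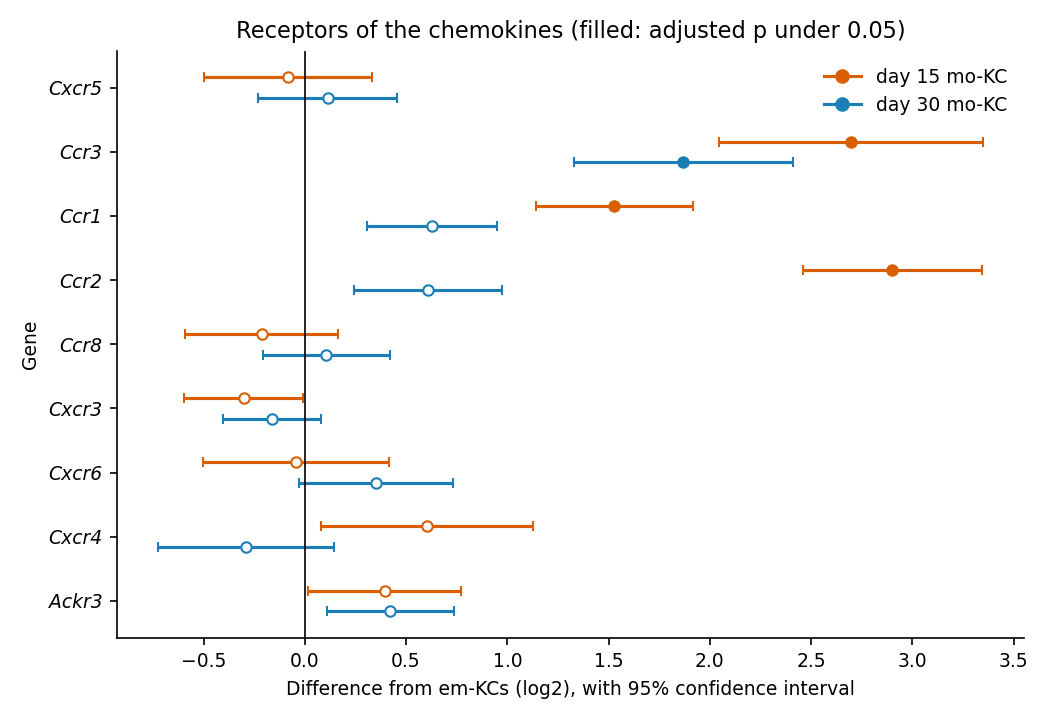
Log2 difference of day 15 and day 30 mo-KCs from em-KCs (horizontal axis, with 95% confidence intervals) for receptors of the chemokines (vertical axis), with filled points where the adjusted p was under 0.05. Ccr3 is filled at both days (2.70 and 1.87), Ccr1 and Ccr2 at day 15 only, and Cxcr5 lies at -0.08 and 0.11.

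Of 30 other chemokine genes, 28 were measured and none was called at day 15, at day 30 or over both days. At an unadjusted p under 0.05 there were 4 at day 15 and 2 at day 30, and the methods' t-test called 0. The widest differences were at day 15 for Cxcl2 (1.51, adjusted p = 0.915 from limma), Ccl4 (1.39, adjusted p = 0.528 from limma) and Ccl3 (1.28, adjusted p = 0.877 from limma), inflammatory chemokines whose levels in em-KCs had SDs of 1.64, 0.88 and 1.11 (n = 11). Of the same 28, 2 were called higher and 5 lower in WT em-KCs than in the other em-KCs. They were Ccl3, Ccl4, Ccl12, Cxcl1, Cxcl2, Cxcl9 and Ppbp, in a comparison where 16.5% of all genes were called. The em-KC SDs of Cxcl2, Ccl4 and Ccl3 thus include a split between WT and other arrays. The 6 arrays with Xist above Eif2s3y, which include the WT arrays, hold no day 15 array. The part of that split in the day 15 differences was not tested. Of 18 genes for binding, cleaving and modifying chemokines, 17 were measured. Against em-KCs, 2 were higher and 1 lower at day 15, and 1 was higher and 1 lower at day 30. Sdc2, a heparan sulfate syndecan that can hold chemokines at the cell surface, fell by 2.79 at day 15 (adjusted p = 1e-08 from limma) and fell by 2.07 at day 30 (adjusted p = 8.77e-08 from limma). Mmp2, a protease able to cleave Cxcl12, was higher by 0.61 (adjusted p = 0.0162 from limma) and 0.65 (adjusted p = 0.00144 from limma). Mmp14, which activates Mmp2, was higher by 0.74 at day 15 (adjusted p = 0.038 from limma).

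Of 15 genes of the lymphotoxin and alternative NF-kB pathway, 13 were measured and 0 were called at either day, with 2 at an unadjusted p under 0.05 at each day and 0 by the methods' t-test. Of 19 genes of alternative macrophage activation, with which Ccl24 is often grouped, Cd163, the haemoglobin scavenger receptor, was the only one called, and fell by 1.86 at day 15 (adjusted p = 0.000508 from limma) and fell by 1.97 at day 30 (adjusted p = 2.17e-05 from limma).

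WT em-KCs were compared with the other em-KCs, with 16.5% of all genes called and 2 of the 8 chemokine genes among them. Ccl9 read 7.67, 7.47 and 6.90 in the WT arrays and between 6.06 and 6.88 in the 8 arrays of KC-DTR mice and their littermates, without overlap, and was higher by 0.83 (adjusted p = 0.00986 from limma). Ccl24 read 11.02, 11.55 and 11.30 in the WT arrays and between 11.31 and 11.85 in the other 8, with overlap, and was lower, with a log2 difference of -0.39 (adjusted p = 0.0167 from limma). Neither call was kept without WT replicate 1, where Ccl9 gave 0.66 (adjusted p = 0.0647 from limma) and Ccl24 -0.26 (adjusted p = 0.119 from limma). Cxcl12 was 0.33 higher without passing (95% confidence interval 0.04 to 0.61, adjusted p = 0.11 from limma), and Ccl8 0.42 (95% confidence interval -0.04 to 0.89), which without WT replicate 3 was 0.71 (adjusted p = 0.0495 from limma). Of the 24 receptors, 0 were higher and 6 lower in WT em-KCs, among them Ccr3 (-0.72) and Cxcr4 (-0.71).

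Other genes also separated the WT arrays from the remaining em-KCs. All 8 hepatocyte markers, 4 of 8 stellate cell markers (Dcn, Des, Col1a1 and Pdgfrb) and 12 of 17 immediate early genes differed from the other em-KCs, the first 2 lists higher and the last lower. The mean hepatocyte marker level was 10.10 to 10.29 in WT arrays and 8.11 to 9.16 in the colony's em-KCs, the stellate marker level 6.73 to 6.91 against 6.26 to 6.53, and the immediate early level 8.08 to 8.25 against 9.29 to 10.06. The day 30 mo-KCs were split in the same direction, with replicates 3 to 5, the other arrays with Xist above Eif2s3y, at 8.44 to 9.41 for hepatocyte markers, 6.62 to 6.88 for stellate markers and 7.95 to 8.44 for immediate early genes. Replicates 1 and 2 of day 30 were at 7.93 to 8.01, 6.41 to 6.43 and 9.81 to 10.13. Dcn (decorin) was the gene nearest to Ccl9 in pattern, with r of 0.86 over 19 arrays and 0.99 within em-KCs. WT em-KCs are also the only em-KCs with Xist above Eif2s3y, so WT origin and array set cannot be told apart. The part of these transcripts in the Ccl9 and Ccl24 differences was not tested.

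The KC label was checked on 9 KC markers. Their mean level was 12.03 to 12.21 in em-KCs, 11.35 to 11.58 at day 15 and 11.41 to 11.73 at day 30, with Timd4 and Marco lower at both days and Clec4f lower at day 30 only (-1.26, adjusted p = 0.000156 from limma). In mo-KCs against em-KCs, the lists of markers for hepatocytes, endothelium, stellate cells, B cells, T and NK cells, neutrophils and dendritic cells had 0 called, and the same held for immediate early and cell cycle genes. At an unadjusted p under 0.05 from limma they had between 0 and 4 genes each, at either day or over both, apart from the cell cycle list with 7 of 10 at day 15 and 9 of 10 over both days, and the methods' t-test called 0. B cell markers, of interest beside Cxcl13, had 5 of 6 measured, with a mean level of 6.10 to 6.77 in em-KCs, 5.99 to 6.45 at day 15 and 6.02 to 6.41 at day 30, and 3 of the 5 had an unadjusted p under 0.05 at day 30. Ccr2 at day 15 was the only monocyte marker called, of 4 measured, and Ccr3 the only eosinophil marker, of 5. The part of other cells in the Cxcl13 difference was not tested.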

How the data were processed

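Gene expression was measured in KCs sorted from 19 mouse liver samples on Affymetrix whole-transcript gene arrays, with 1 array per sample. The authors deposited log2 expression values per probeset made with RMA, which corrects background and quantile-normalizes between arrays, and the RMA software version is not given in the sources used here. Of 35556 probesets, 21789 carried 1 gene symbol, 1621 several and 12146 none, and only the first kind was used, with the probeset of the highest mean per gene. All 8 chemokine genes lay above the lowest 25% of genes by mean level, and no filter on low values was applied. The number of arrays limits the precision.

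A limma 3.58.1 model in R 4.3.3 with 3 classes (em-KCs and mo-KCs of either day) gave the mo-KC comparisons, and a model with 7 conditions gave those among em-KCs. The two-sided p of each gene was corrected with the Benjamini-Hochberg method across 19938 genes, at a threshold of 0.05. The fit was tested on simulated data. No 2 of the 171 pairs of arrays were identical. The 8 genes, the gene lists and the tests were chosen with earlier results of these data known, so they give no independent support. Genes named beyond the 8 are called receptors and chemokines, each gene's receptors, up to 4 called genes of every other list, and the genes nearest in pattern by Pearson's r; Ccl3, Ccl4, Cxcl2 and Ppbp were named after their values were seen. Alternatives covered the em-KC arrays compared, array set, normalization, variance model, filter, threshold, marker covariates, the methods' t-test, the replicate block and each array left out. Promoter sequences come from RefSeq on GRCm38.p6, and no source used here gives a build for the array values.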

Additional observations from a re-analysis of the deposited data

Results flagged for a closer look

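The Cxcl13 difference from em-KCs differed between the 2 mo-KC time points, since the test of day 30 against day 15 itself gave 2.57 on the log2 scale (adjusted p = 2.51e-05 from limma, with every day 30 array above every day 15 array). By Dixon's ratio, no array of the 5 day 30 mo-KCs stood out from its group for any of the 8 chemokine genes. The highest ratio was 0.55 for Pf4, against a critical value of 0.71. The ratio looks for 1 outlying array, so it cannot show whether replicates 1 and 2 differ from replicates 3 to 5.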

How the results depend on the processing

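There were 41 alternative settings, of which 19 left out 1 array, and each value was recomputed under 35 to 41 of them, depending on the comparison. Of 1840 values for single genes, 1814 kept their call and direction, 13 lost and 11 gained a call, and 2 reversed; a further 132 changed sign where neither value passed and the interval spanned 0. Cxcl13 kept its calls at day 15 (-4.43 to -3.66) and day 30 (-1.81 to -1.31) under all settings, and between the days under all but the methods' t-test, where 0 of the 8 genes were called. The count of chemokine genes called at day 30 was 2 in place of 1 with the 5 littermate em-KC arrays, the array set as a block, the 6 arrays with Xist above Eif2s3y, a trended and robust variance, or hepatocyte markers as a covariate, and for both days 2 with the littermate arrays; Pf4 was the gene added. Leaving out 1 array gave 1 to 2 at day 30, 1 to 2 for both days and 0 to 3 for WT against other em-KCs, the 3 without WT replicate 3. The WT count, 2 in the fit reported, was 1 with cyclic loess, the methods' t-test, an adjusted p under 0.01 or at least 1.5-fold, and 0 with hepatocyte, platelet or immediate early covariates. With these 3 covariates in turn Ccl9 gave log2 differences of 0.54, 0.77 and 0.41 and Ccl24 of -0.47, -0.22 and -0.45. The confidence intervals for Ccl9 were -0.28 to 1.36, 0.09 to 1.44 and -0.16 to 0.97. Those for Ccl24 were -0.90 to -0.05, -0.55 to 0.11 and -0.78 to -0.13. The level of each covariate did not overlap between WT and other em-KCs, so these fits cannot separate it from WT origin. Cxcl12 in WT em-KCs reversed to -0.013 with the hepatocyte and -0.048 with the immediate early covariate. The cause of these changes was not tested. With the replicate block, 1 chemokine gene was called at day 15, at day 30, over both days and between the days, and 2 in WT em-KCs, as without it, and Cxcl13 gave -4.11 at day 15 and -1.78 at day 30. Pairing by replicate number was examined on each array's deviations from its condition means, gene by gene. These deviations correlated between same-numbered arrays of different conditions with a median r of 0.02 (36 pairs, -0.12 to 0.15). Arrays with other numbers gave a median r of -0.005 (96 pairs, -0.16 to 0.14), so no pairing was seen. In conditions of 2 arrays the deviations mirror each other, which limits what this check can show.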
